A study of Mus musculus with 2 samples.

Results

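Insulin-like growth factors (IGFs) are secreted peptides that signal through a receptor tyrosine kinase, Igf1r, whereas Igf2r binds IGF2 at the cell surface and carries it to lysosomes for degradation. IGF binding proteins (Igfbp genes) are secreted proteins that hold IGFs outside the cell, extend their lifetime and limit or deliver them to the receptor, and each binding protein has its own tissue pattern. In the spinal cord, ependymal cells line the central canal, endothelial cells form the vessel wall, and pericytes and smooth muscle cells (mural cells) wrap capillaries and arterioles.

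The levels of 8 genes of this pathway were followed across ependymal-like cells, vessel segments and mural-like cells of the spinal cord: the binding protein genes Igfbp2, Igfbp3, Igfbp4, Igfbp5 and Igfbp7, the ligand Igf2, and the receptors Igf1r and Igf2r. They were taken by name from a list of 41 IGF pathway genes, of which 37 had a row in the count tables, among 24071 genes in all. Igfbp7 was chosen by its CPM in traced against non-traced ependymal-like cells, where its fall was among the largest in these same data, and the patterns of the others were known when the list was made, so all values are descriptions.

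Cells came from adult mice of 10 to 12 weeks, strain C57BL/6j, that carried Clec9a cre/cre and R26 LSLtdTomato/LSLtdTomato, so both groups shared every allele. Clec9a encodes DNGR-1, and a cell in which the gene is or once was active can be marked for good by tdTomato, as are its descendants. The paper puts part of the unmarked ependymal cells down to incomplete marking, so non-traced cells may share this history. It also treats animals of this genotype as deficient in Clec9a. Live CD45- CD133+ cells were sorted after myelin removal into 2 libraries, CD133+ DNGR-1 traced (tdTomato-positive, 4825 cells) and CD133+ non-traced (25411 cells). Each group was 1 library, so that no test between groups was possible, and the number of animals behind each library is not given in the sources used here. Median depth was 8566 and 7218 UMIs (unique molecular identifiers, each a captured RNA molecule), and 42 cell barcodes occurred in both libraries, which is 0.870% of the traced and 0.165% of the non-traced barcodes. The sort on CD133 sets which cells are present, so shares of cell types are not those of the tissue.

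Levels are given as CPM, the UMIs of a gene summed over all cells of a population divided by all UMIs of that population (counts per 1000000), with an exact Poisson 95% interval. Intervals cover counting error only, not the spread between animals. Differences are log2(CPM + 1) of one population minus another, with an interval drawn from the ends of both Poisson intervals. A gene was taken as past the fold at a difference of at least 2-fold, among genes with at least 10 CPM in either population. The kit reads 3′ ends, and levels are compared within a gene and not between genes.

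Cells were clustered with the listed IGF genes left out of the features for the sub-clusters. All 10 ependymal markers were found in at least 50% of the ependymal-like cells of either library (4706 traced and 1162 non-traced). Non-traced endothelial-like cells (21048) were split by arterial, capillary and venous markers into 5303 arterial-like, 12668 capillary-like and 2320 venous-like cells, which left out 728 cells with mural transcripts and 29 others. Of the markers, 7 of 10 arterial, 10 of 10 capillary and 7 of 11 venous ones were each found in at least 50% of the cells of their own segment. Another 60 endothelial-like cells came from the traced library. The mural-like cells, 177 pericyte-like and 107 smooth-muscle-like, were all non-traced. In pericyte-like cells 9 of 9 pericyte markers reached that share, but also 5 of 8 endothelial markers, and in smooth-muscle-like cells 5 of 6 smooth muscle, 6 of 9 pericyte and 3 of 8 endothelial markers did. One pericyte-like sub-cluster (82 cells) was led by the haemoglobin genes Hba-a1, Hba-a2, Hbb-bs and Hbb-bt.

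The 8 genes divided the populations between them. Of the 8 named populations, ependymal-like cells held the highest levels of Igfbp2 and Igfbp5, although Igfbp5 was also high in smooth-muscle-like cells. Igfbp3 was highest in the arterial-like segment and in the few traced endothelial-like cells, and Igfbp7 was high in every vascular population. Igf1r was highest in capillary-like cells, and Igf2 and Igf2r were highest in pericyte-like cells. Igfbp4 was raised in parts of several populations, above all in an arterial-like, a venous-like and a dividing ependymal-like sub-cluster. A group of 32 fibroblast-like cells, which is not among the 8 populations, held higher levels of Igfbp2, Igfbp4, Igfbp5 and Igf2 than any of them. In this group 23 of 47 Igfbp2 UMIs and 26 of 35 Igf2 UMIs were in 1 cell for each gene.

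**Figure D1:**
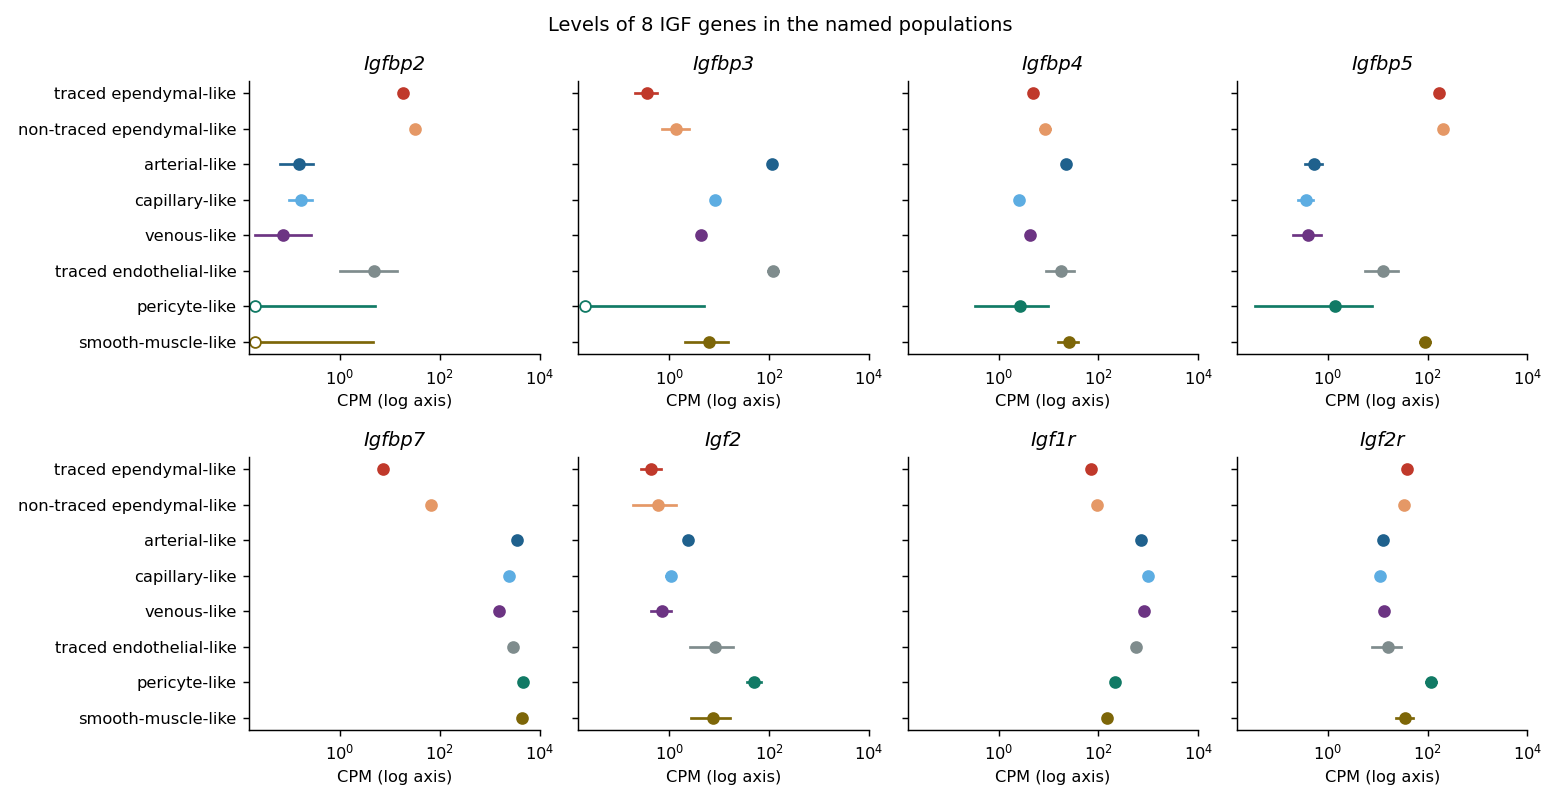
CPM on a log axis for the 8 genes in 8 populations, with lines for exact Poisson 95% intervals; open circles at the left edge mark populations without a UMI of the gene. Igfbp5 reached 166 CPM in traced ependymal-like cells and 89.3 CPM in smooth-muscle-like cells but stayed at or under 0.515 CPM in the 3 vessel segments.

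The genes lie on chromosomes 1, 5, 7, 11 and 17, in GENCODE vM21 coordinates on GRCm38 (mm10). Igfbp2 (chr1:72824503-72852474, plus strand) and Igfbp5 (chr1:72857932-72874884, minus strand) are neighbours that point at each other with 5457 bases between them. Igfbp3 (chr11:7206086-7213923, minus strand) and Igfbp4 (chr11:99041244-99054392, plus strand) share a chromosome but are far apart. Igfbp7 is at chr5:77349240-77408041 on the minus strand. Igf2 (chr7:142650766-142666816, minus strand) and Igf1r (chr7:67952827-68233668, plus strand) are on chromosome 7, and Igf2r (chr17:12682406-12769664, minus strand) is overlapped by the antisense gene Airn (chr17:12741311-12860136) over 28354 bases.

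The 250 bases before the RefSeq start of 4 genes are shown, because both neighbours on chromosome 1 were higher in ependymal-like than in endothelial-like cells and both genes on chromosome 11 were raised in arterial-like cells. Sequences are RefSeq promoters on GRCm38.p6, written 5′ to 3′ on the strand of the gene, and capitals mark a match to TATAAA (the TATA box), TGGGAA (the core of RBPJ sites) or GTTGCC (a half-site of RFX factors), searched on both strands in the promoter from 250 bases before to 50 bases after the start.
Igfbp2, chr1:72824230-72824479, plus strand: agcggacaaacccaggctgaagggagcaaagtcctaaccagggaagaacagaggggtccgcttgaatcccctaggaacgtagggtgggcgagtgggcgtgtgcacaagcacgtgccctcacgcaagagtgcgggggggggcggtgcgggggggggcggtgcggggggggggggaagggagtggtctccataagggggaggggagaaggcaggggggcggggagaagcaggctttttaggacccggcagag
Igfbp5, chr1:72874866-72875115, minus strand: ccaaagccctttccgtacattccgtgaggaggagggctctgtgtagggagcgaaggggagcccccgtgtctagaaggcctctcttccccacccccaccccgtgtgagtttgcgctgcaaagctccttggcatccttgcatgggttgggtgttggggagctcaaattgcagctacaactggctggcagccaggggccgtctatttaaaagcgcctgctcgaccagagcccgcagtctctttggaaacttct
Igfbp3, chr11:7213924-7214173, minus strand: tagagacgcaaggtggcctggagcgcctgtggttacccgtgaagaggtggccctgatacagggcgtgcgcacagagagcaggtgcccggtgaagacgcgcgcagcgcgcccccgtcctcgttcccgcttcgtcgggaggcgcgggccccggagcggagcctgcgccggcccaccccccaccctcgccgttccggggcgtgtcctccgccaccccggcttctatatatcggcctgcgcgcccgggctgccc
Igfbp4, chr11:99040994-99041243, plus strand: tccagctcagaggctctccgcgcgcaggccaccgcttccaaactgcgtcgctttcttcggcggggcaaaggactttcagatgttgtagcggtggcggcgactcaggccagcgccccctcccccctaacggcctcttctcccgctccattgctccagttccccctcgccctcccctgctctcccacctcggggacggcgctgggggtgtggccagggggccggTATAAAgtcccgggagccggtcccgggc
Only Igfbp4 held an exact match among these 4 promoters, a TATAAA that begins 28 bases before the start. Other spellings of these sites were not searched, such as the TATA stretch near the end of the Igfbp3 sequence. Of 32851 promoters of the same length, 13.6% hold TATAAA, 25.6% hold TGGGAA and 12.5% hold GTTGCC. The whole promoters of Igfbp3 and Igfbp4 held 37 and 27 CpG dinucleotides, those of Igfbp2 and Igfbp5 held 18 and 10, and the median over all promoters was 7.

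Igfbp5, a binding protein that is deposited in extracellular matrix, separated ependymal-like cells from the vessel segments. Its level was 166 CPM (162 to 169) in traced and 203 CPM (194 to 213) in non-traced ependymal-like cells. In arterial-like, capillary-like and venous-like cells it was 0.515, 0.362 and 0.404 CPM, and the 3 intervals overlapped. At a depth of 1000 UMIs per cell, an Igfbp5 UMI was found in 14.9% of traced and 15.7% of non-traced ependymal-like cells but in 7 of 21048 endothelial-like cells (0.0333%). The median depths of these cells before thinning were 8586.5, 7056.5 and 6927 UMIs. The 60 traced endothelial-like cells held more Igfbp5, 12.9 CPM (5.58 to 25.5) on 8 UMIs. Smooth-muscle-like cells held 89.3 CPM, above the 72.3 CPM of dividing ependymal-like cells of the traced library and below both ependymal-like populations as a whole.

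Igfbp2 followed the same division. Traced ependymal-like cells held 18.5 CPM (17.3 to 19.8) and non-traced ones 31.4 CPM (27.7 to 35.3), whereas the vessel segments held between 0.0735 and 0.166 CPM. No Igfbp2 UMI was found in either mural-like population, where 3 UMIs would have been 4.11 CPM in pericyte-like and 3.77 CPM in smooth-muscle-like cells. Over 29 populations and sub-clusters, which overlap in part, the Pearson correlation of log2 levels of Igfbp2 and Igfbp5 was 0.92.

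Among ependymal-like sub-clusters of at least 50 cells, both genes were highest in the one led by Ucma, with Sulf1 and Vtn among its next genes (567 cells, 202 of them traced). Vtn encodes the extracellular protein vitronectin. Igfbp2 was at 42.2 CPM (33.8 to 52.1) in the traced cells of this sub-cluster, against 17.4 CPM in the other traced ependymal-like cells, a difference of 1.23 (0.82 to 1.63). It was past the fold in a comparison in which 2.99% of genes were at least 2-fold higher and 2.34% were at least 2-fold lower. As the sub-cluster was singled out as the one with the highest levels, nothing was read from these shares. Igfbp5 was at 285 CPM (262 to 309) against 160 CPM, 1.78-fold and short of the fold. The non-traced cells of the sub-cluster held 54.6 CPM (46.0 to 64.2) of Igfbp2 and 271 CPM (252 to 292) of Igfbp5. High levels of both genes in this sub-cluster were thus seen in both libraries. A sub-cluster of 38 cells led by Zic1, Gkn3, Mgp and Rgs5 held more Igfbp5, 557 CPM in its 13 traced cells (48 of 92 UMIs in 1 cell) and 380 CPM in the 25 others (23 of 75 UMIs in 1 cell).

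The related genes Ctgf and Wisp2, which encode matricellular proteins of the CCN family, were also past the fold in the traced cells of the Ucma sub-cluster, with 27.5 CPM against 12.6 CPM and 26.0 CPM against 7.44 CPM. Kazald1, an IGF binding protein-related gene, was lower there, with 2.45 CPM against 14.6 CPM. Grb14, an adaptor that inhibits insulin receptor signalling, was at 43.2 CPM against 138 CPM. These 4 were the only genes past the fold among the 10 other listed genes with enough UMIs in this comparison.

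Dividing ependymal-like cells had another pattern. A sub-cluster led by Mki67, Pbk, Hist1h1b and Prc1 (116 cells, 100 of them traced) held Igfbp4 at 66.9 CPM (53.6 to 82.5) in its traced cells. The other 4606 traced ependymal-like cells held 2.996 CPM (2.51 to 3.55), a 22.3-fold difference. In the same cells Igfbp2 was higher, with 38.4 CPM against 17.9 CPM, and Igfbp5 was lower, with 72.3 CPM against 168 CPM. Of 9937 genes compared, 6.73% were at least 2-fold higher and 1.12% at least 2-fold lower in the dividing cells, and 2 and 1 of the 5 members with enough UMIs were. The 16 non-traced cells of the sub-cluster held Igfbp4 at 111 CPM and Igfbp5 at 27.7 CPM, on the same side of the other cells as the traced ones. The largest number of Igfbp4 UMIs in a traced dividing cell was 14 of the 87 counted.

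**Figure D2:**
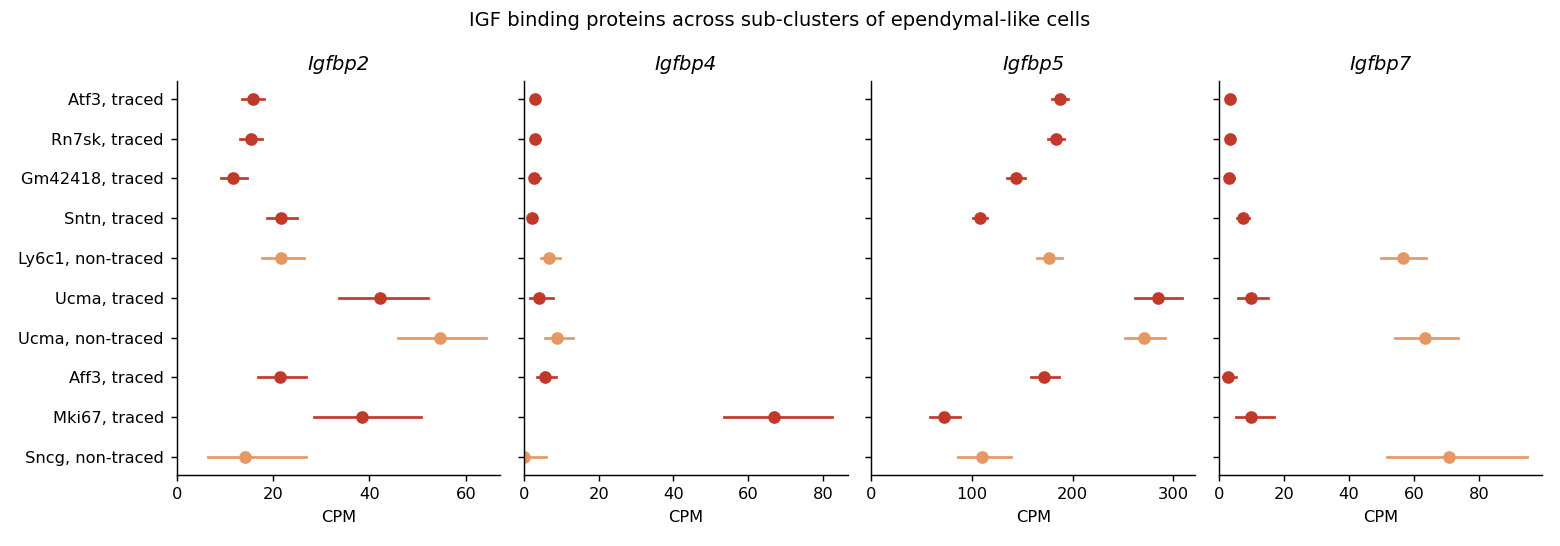
CPM of 4 binding protein genes in each library's part of the ependymal-like sub-clusters with at least 50 cells, named by the first of their leading genes, with exact Poisson 95% intervals (red, traced; orange, non-traced). Igfbp4 stood out in the traced cells led by Mki67, Igfbp2 and Igfbp5 in both parts led by Ucma, and Igfbp7 in all 3 non-traced parts.

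The comparison of traced with non-traced ependymal-like cells asks whether the marked cells of the central canal differ in IGF genes from unmarked ependymal-like cells. Among the 5 members with at least 10 CPM, 1 was at least 2-fold lower in traced cells and 0 were higher, where 1.35% of 9567 genes were lower and 0.763% higher. Igfbp7 was that member, and since its fall in this contrast put it on the list, nothing was read from the count. Traced cells had an Igfbp7 level of 7.18 CPM (6.42 to 7.998), 9.35-fold below the 67.1 CPM (61.8 to 72.8) of non-traced cells. Igfbp2 differed by -0.73 (-0.99 to -0.47), Igf1r by -0.38 (-0.53 to -0.23), Igfbp5 by -0.29 (-0.39 to -0.19) and Igf2r by 0.20 (-0.03 to 0.43), all traced minus non-traced. The median over the 5, Igfbp7 among them, was -0.38, against 0.03 over all genes compared. Nothing was read from this median either. Of the other listed genes, Wisp2 was the 1 of 10 past the fold, with 8.27 CPM in traced cells against 19.8 CPM. Within the Ucma sub-cluster, where Wisp2 was high, the traced cells held 26.0 CPM and the non-traced ones 42.8 CPM, a difference of -0.70 (-1.36 to -0.05), and none of the 9 listed genes tested there beside the members, Wisp2 included, was past the fold.

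The ependymal-like cells of the libraries fell for the most part into different sub-clusters. These were made from both libraries without integration, and the part of a library effect in this split was not tested. Of the 1162 non-traced cells, 740 were in 3 sub-clusters with endothelial markers among their leading genes, one of them led by Ly6c1, Ly6a, Flt1 and Cldn5, whereas 4687 of the 4706 traced cells were outside them. Without these 3 sub-clusters the 422 non-traced cells held Igfbp2 at 49.8 CPM and Igfbp4 at 13.2 CPM, against 18.5 and 4.83 CPM in the 4687 traced cells, and both genes were then past the fold. Of these 422 non-traced cells, 16 were in the Mki67 sub-cluster, where Igfbp4 was high. The Ucma sub-cluster held 365 of the non-traced and 202 of the 4706 traced cells. Within this sub-cluster alone Igfbp2 differed by -0.36 (-0.91 to 0.18), Igfbp5 by 0.07 (-0.15 to 0.30) and Igf1r by -0.23 (-0.64 to 0.18), and each interval held 0. There 1.1% of genes were at least 2-fold lower and 1.49% at least 2-fold higher in traced cells. Igfbp7 was still lower, with 9.82 CPM (5.996 to 15.2) against 63.3 CPM (54.0 to 73.6).

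Igfbp7 is a secreted protein of the vessel wall that binds IGFs weakly. In ependymal-like cells its level and those of 4 endothelial genes were all lower in the traced library, by unlike amounts. In non-traced ependymal-like cells Igfbp7 was at 2.48% of its level in endothelial-like cells. The tight junction gene Cldn5 was at 1.27% of its endothelial level there, the VEGF receptor gene Flt1 at 1.57%, the adhesion gene Pecam1 at 1.72% and the surface antigen gene Ly6c1 at 1.75%. In traced ependymal-like cells Igfbp7 was at 0.266% and the 4 endothelial genes between 0.0459% and 0.168%. The summed level of the whole endothelial marker list came to 376 CPM in non-traced ependymal-like cells, 16.1 CPM in the traced ones and 19813 to 25540 CPM in the 3 vessel segments.

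Cells without a UMI of Cldn5, Flt1, Pecam1 or Ly6c1 numbered 236 in the non-traced and 4647 in the traced ependymal-like cells. Igfbp7 was at 52.4 CPM in the former and 4.57 CPM in the latter. These 236 cells still held 117.5 CPM of the other endothelial markers, against 1.38 CPM in the 4647 traced cells. The part of vessel RNA in the Igfbp7 level of ependymal-like cells was not tested. At 1000 UMIs per cell an Igfbp7 UMI was found in 6.45% (5.11 to 8.02) of non-traced and 0.531% (0.344 to 0.783) of traced ependymal-like cells, and a Cldn5 UMI in 8.95% and 0.127%. Of the 328 Igfbp7 UMIs in traced ependymal-like cells 78 were in 1 cell, and the highest Cldn5 count in a traced cell was 87.

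**Figure D3:**
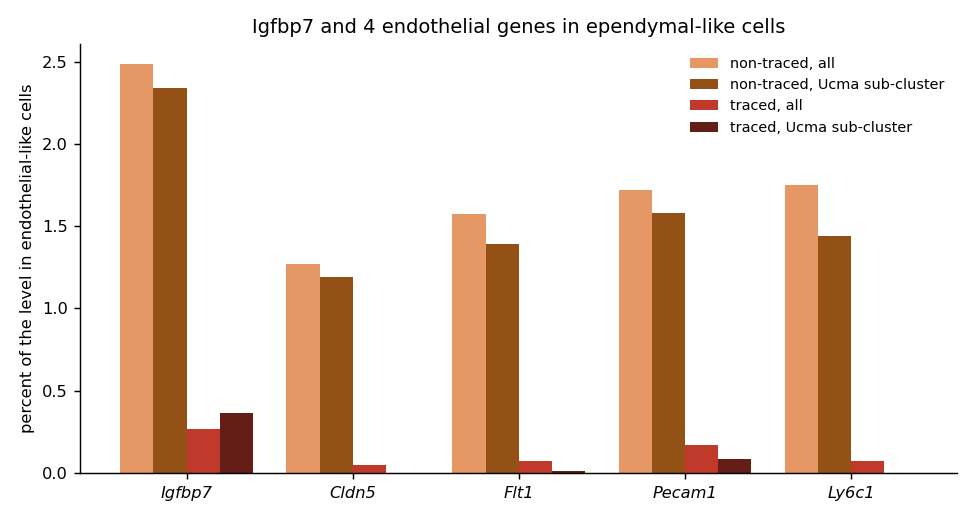
Bars give the level of Igfbp7 and 4 endothelial genes in ependymal-like cells as a percent of the level in non-traced endothelial-like cells, for all cells and for the Ucma sub-cluster of each library. All 5 genes lay between 1.19% and 2.48% in the non-traced sets and at or under 0.363% in the traced sets.

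In vessels Igfbp7 was graded along the segments. It was at 3603 CPM in arterial-like, 2489 CPM in capillary-like and 1561 CPM in venous-like cells, and the 3 Poisson intervals did not overlap. The differences from capillary-like cells were 0.53 (0.52 to 0.55) and -0.67 (-0.69 to -0.65), both short of the fold. Among single sub-clusters, arterial-like cells led by Gkn3, Igfbp3, Vegfc and Egfl8 held 4443 CPM, and the 97 venous-like cells led by Lrg1, Ackr1, Selp and Cd14 held 1232 CPM. The arterial-like sub-clusters ran from 3130 to 4443 CPM, and 1 of the 5 capillary-like ones lay in this range, at 3567 CPM. The 60 traced endothelial-like cells held 2987 CPM (2852 to 3126) of Igfbp7, so Igfbp7 in vessels was high in both libraries. Against non-traced endothelial-like cells, 2 of 6 members were at least 2-fold higher in these 60 cells and 0 were lower, where 10.3% of genes were higher and 2.11% lower. They were Igfbp3, with 121 CPM against 40.5 CPM, and Igfbp5, with 12.9 CPM against 0.432 CPM. Arterial-like cells alone held 116 CPM of Igfbp3. Of the 60 cells, 28 were in the cluster of both libraries led by Igfbp3 and Gkn3, as were 5205 of the 21048 non-traced ones. The IGF genes were not left out of the features of that clustering, so membership is not independent of Igfbp3. The part of this make-up in the Igfbp3 difference was not tested. The 60 cells also held 1341 CPM of summed ependymal markers, against 15.5 to 37.7 CPM in the 3 vessel segments, and the part of ependymal RNA in the Igfbp5 level was not tested.

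Igfbp3, the main IGF carrier of the blood, was arterial. Its level was 116 CPM (113 to 119) in arterial-like, 8.25 CPM (7.69 to 8.84) in capillary-like and 4.41 CPM (3.65 to 5.27) in venous-like cells. The arterial-like level was 14.1-fold that of capillary-like cells. A UMI was found in 10.2% of arterial-like cells thinned to 1000 UMIs, in 0.687% of capillary-like and in 0.302% of venous-like cells. Sub-clusters of the arterial-like cells were unlike each other, with 197 CPM in cells led by Cytl1 and Fbln5, 195 CPM in those led by Gkn3, 86.8 CPM in those led by Pi16 and S100a4, and 54.8 CPM in those led by Gm9946 and Unc5b, a Netrin receptor gene. Capillary-like sub-clusters ran from 1.74 to 22.3 CPM, below each arterial-like one. The genes with patterns most like Igfbp3 over the 29 populations and sub-clusters were Gkn3 (Pearson r = 0.98), Egfl8, Fbln2, Vegfc and Cdk19 (r = 0.95).

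Igfbp4 was raised in a small part of the arterial-like cells. It was at 22.8 CPM (21.5 to 24.1) in arterial-like, 2.55 CPM (2.24 to 2.89) in capillary-like and 4.30 CPM (3.55 to 5.15) in venous-like cells. The 516 arterial-like cells led by Cytl1, Fbln5, Mgp and Igfbp4 itself held 156 CPM (145 to 167), and those led by Gkn3 held 13.8 CPM (12.1 to 15.7). Fbln5 encodes a protein of elastic fibres, and Mgp an inhibitor of vessel calcification. Igfbp4 was the 1 member past the fold between these sub-clusters, where 2.39% of genes were at least 2-fold higher in the Cytl1 cells. As Igfbp4 was itself a leading gene of the Cytl1 cells, nothing was read from this count. Igfbp3 was at nearly the same level in both sub-clusters. The 97 venous-like cells led by Lrg1 and Ackr1 held 43.6 CPM (31.2 to 59.4) of Igfbp4, and the other 2223 venous-like cells, led by Vcam1 and Icam1, held 2.93 CPM.

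Between arterial-like and capillary-like cells, 2 of the 5 members with enough UMIs were at least 2-fold higher, Igfbp3 and Igfbp4, and 0 were lower. Of all 8401 genes compared, 2.4% were at least 2-fold higher and 0.774% at least 2-fold lower. Other listed genes raised in arterial-like cells were Kazald1 (35.4 against 7.13 CPM), Nov, a CCN family gene (56.9 against 12.4 CPM), and Stc1, whose product stanniocalcin-1 is a secreted glycoprotein (17.2 against 3.13 CPM). Between venous-like and capillary-like cells none of 3 members was past the fold, where 1.4% of 8347 genes were at least 2-fold higher and 0.683% at least 2-fold lower. Nov and Htra1, a secreted protease that cleaves binding proteins, were lower in venous-like cells, with 3.34 against 12.4 CPM and 44.2 against 90.3 CPM.

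**Figure D4:**
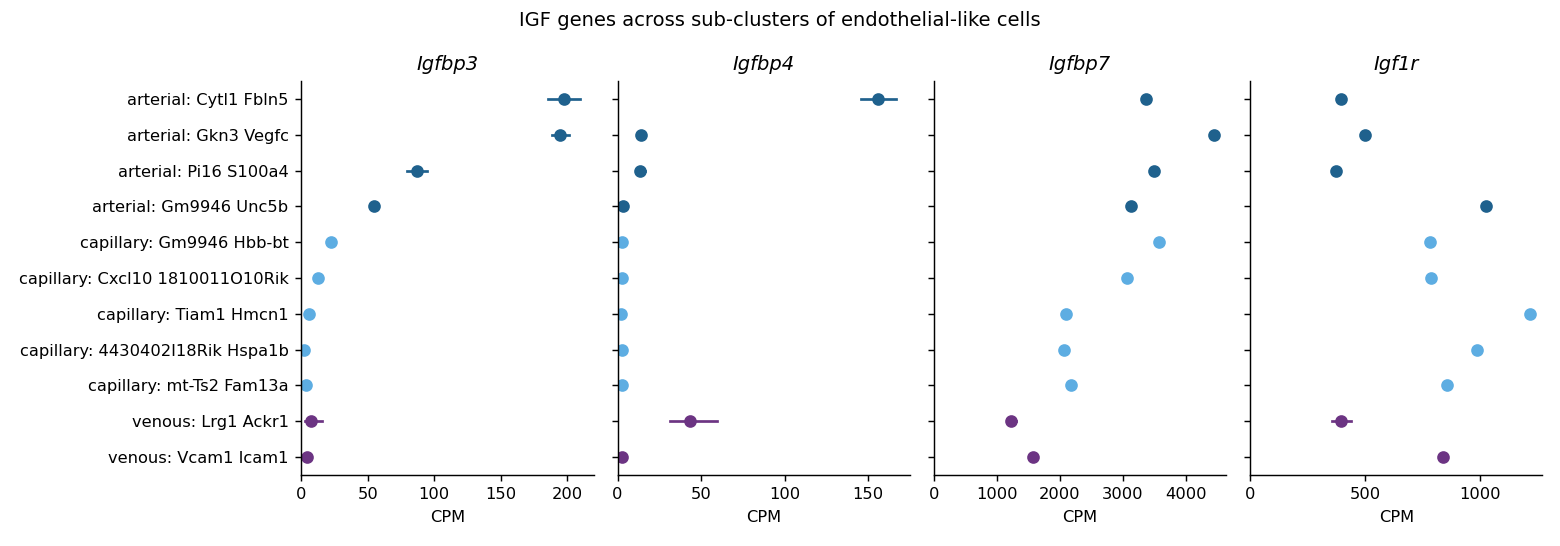
CPM with exact Poisson 95% intervals for 4 genes in the 11 sub-clusters of endothelial-like cells named arterial-like, capillary-like or venous-like, labelled by 2 leading genes that are not on the IGF list. Igfbp3 was above 50 CPM only in the 4 arterial-like sub-clusters, and Igfbp4 peaked at 156 CPM in the Cytl1 cells.

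Igf1r, the signalling receptor, had the reverse order of Igfbp3 in part. It was at 969.5 CPM (963 to 976) in capillary-like, 825 CPM (814 to 836) in venous-like and 722 CPM (715 to 730) in arterial-like cells. The arterial-like sub-clusters led by Cytl1, Gkn3 and Pi16 held 396, 500 and 374 CPM, whereas the Unc5b cells held 1023 CPM, above 4 of the 5 capillary-like sub-clusters. The highest level, 1214 CPM, was in the capillary-like cells led by Tiam1 and Hmcn1. Without the Unc5b cells, the difference of arterial-like from capillary-like cells was -1.10 and past the fold. Ependymal-like cells held 71.3 CPM (traced) and 93.1 CPM (non-traced). The latter was 10.7% of the endothelial level, where the 4 endothelial genes were at 1.27% to 1.75% in the same cells. The part of vessel RNA in the Igf1r level of ependymal-like cells was not tested.

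Mural-like cells, compared with endothelial-like cells, address which wall layer carries each gene. Igfbp7 was high in both layers, with 4732 CPM (4576 to 4893) in pericyte-like, 4421 CPM (4276 to 4570) in smooth-muscle-like and 2701 CPM (2694 to 2709) in all non-traced endothelial-like cells. Igf1r was lower in both mural-like populations, with 216 CPM (184 to 253) in pericyte-like and 151 CPM (125 to 181) in smooth-muscle-like cells against 867 CPM in endothelial-like cells. The pericyte-like level rested in large part on a sub-cluster of 59 cells in which 9 of 9 pericyte and 6 of 8 endothelial markers were each found in at least 50% of cells. Its summed pericyte markers were at 33550 CPM and its summed endothelial markers at 4842 CPM. Its leading genes over the other mural-like cells, Mcf2l, Arhgef15, Slc38a5 and Mfsd2a, held no pericyte marker. This sub-cluster supplied 98 of the 158 Igf1r UMIs, at 349 CPM. Without it the other 118 pericyte-like cells held 134 CPM (102 to 172) of Igf1r, 49.0 CPM of Igf2 and 122 CPM of Igf2r, and the same 6 members stayed past the fold in the mural comparisons. In the sub-cluster led by haemoglobin genes Igf1r was at 109 CPM. Igfbp3 had no UMI in pericyte-like cells, at least 9.85-fold lower than in endothelial-like cells when 3 UMIs over the population are taken as the floor.

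Igf2, the ligand, and Igf2r, its clearance receptor, were both highest in pericyte-like cells among the named populations. Igf2 was at 50.7 CPM (35.7 to 69.8, 37 UMIs) in pericyte-like and 7.55 CPM (2.77 to 16.4, 6 UMIs) in smooth-muscle-like cells. The vessel segments held 0.698 to 2.34 CPM, and ependymal-like cells 0.438 CPM (traced) and 0.579 CPM (non-traced). In the 3 pericyte-like sub-clusters Igf2 was at 28.2, 53.4 and 84.4 CPM, with intervals that overlapped. Pericyte-like cells held 273 CPM of fibroblast markers in sum, and the 32 fibroblast-like cells of the non-traced library held 32742.5 CPM of these and 88.0 CPM of Igf2. The share of cells with an Igf2 UMI at 1000 UMIs, 2.82% (0.923 to 6.47) in pericyte-like cells, rested on 5 of 177 cells, and in endothelial-like cells it was 0.166%.

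Igf2r was at 116 CPM (92.97 to 144) in pericyte-like, 35.2 CPM (23.4 to 50.9) in smooth-muscle-like and 11.8 CPM (11.3 to 12.3) in endothelial-like cells. Ependymal-like cells held 38.6 CPM (traced) and 33.4 CPM (non-traced), with intervals that overlapped each other and that of smooth-muscle-like cells. Within the segments the range was 10.9 to 13.4 CPM. In pericyte-like sub-clusters it was between 96.4 and 138 CPM, so none of them fell into the range of endothelial-like cells. Airn, the antisense transcript that silences the paternal copy of Igf2r, had the same order in the vessel wall, with 80.8 CPM (61.5 to 104) in pericyte-like, 22.6 CPM (13.4 to 35.8) in smooth-muscle-like and 1.99 CPM in endothelial-like cells. Ependymal-like cells, which were level with smooth-muscle-like cells in Igf2r, held less Airn, 4.60 CPM (traced) and 6.60 CPM (non-traced). The sources used here do not state whether counting used the strand, and without it reads of Airn and Igf2r cannot be told apart where the genes overlap.

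Igfbp5 and Igfbp4 were higher in smooth-muscle-like than in pericyte-like cells. Igfbp5 was at 89.3 CPM (69.8 to 113, 71 UMIs) in smooth-muscle-like and 1.37 CPM (1 UMI) in pericyte-like cells. Igfbp4 was at 25.2 CPM (15.4 to 38.9) and 2.74 CPM (0.332 to 9.89), on 20 and 2 UMIs. The summed ependymal markers were at 532 CPM in smooth-muscle-like and 1035 CPM in pericyte-like cells, most of it from Rarres2 (346 and 816 CPM), and at 9271 CPM in traced ependymal-like cells, and Igfbp2 was at 0 in both mural-like populations. In the 13 smooth-muscle-like cells without a UMI of the 4 endothelial genes, Igfbp5 was at 65.7 CPM (21.3 to 153) and Igfbp4 had no UMI, with an upper limit of 48.4 CPM, so the Igfbp4 difference could not be seen again at this depth.

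Against endothelial-like cells, 2 of 5 members were at least 2-fold higher in pericyte-like cells (Igf2 and Igf2r) and 2 lower (Igf1r and Igfbp3), where 15.0% of 9424 genes were higher and 15.3% lower. In smooth-muscle-like cells 3 of 6 were higher (Igfbp4, Igfbp5 and Igf2r) and 2 lower (Igf1r and Igfbp3), where 17.0% of 9614 genes were higher and 18.6% lower. Between smooth-muscle-like and pericyte-like cells 2 of 6 were higher in the former (Igfbp4 and Igfbp5) and 2 in the latter (Igf2 and Igf2r), where 10.9% and 14.3% of 9450 genes were. All mural-like cells were from 1 library.

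Of the 12 other listed genes with at least 10 CPM, 5 were at least 2-fold higher in pericyte-like than in endothelial-like cells (Ctgf, Irs1, Irs2, Shc1 and Airn) and 4 lower (Insr, Kazald1, Nov and Grb14), beside the 15.0% and 15.3% of all genes. In smooth-muscle-like cells 4 were higher (Ctgf, Irs1, Irs2 and Airn) and 3 lower (Insr, Nov and Grb14), beside 17.0% and 18.6%. Endothelial-like cells held 116 CPM of Insr, the insulin receptor gene, pericyte-like cells 43.8 CPM and smooth-muscle-like cells 36.5 CPM, and Grb14 at 207, 23.3 and 12.6 CPM. Other adaptors of these receptors differed less: Grb10 was at 45.6, 73.9 and 57.9 CPM in the same order, short of the fold in both comparisons, and Shc1 at 27.1, 60.3 and 46.6 CPM, past it in pericyte-like cells. The adaptor genes Irs1 and Irs2, whose products carry the signal from Igf1r and Insr into the cell, were close to absent in endothelial-like cells, with 0.340 and 0.416 CPM. Irs1 was at 28.9 CPM in smooth-muscle-like, 10.95 CPM in pericyte-like and, in the traced library, 34.7 CPM in ependymal-like cells. Irs2 was at 127 CPM (104 to 154) in smooth-muscle-like, 17.8 CPM in pericyte-like and, of the traced library, 32.9 CPM in ependymal-like cells. Non-traced endothelial-like cells therefore held the highest Igf1r and Insr levels and the lowest Irs1 and Irs2 levels of the populations. Ctgf was at 229 and 224 CPM in pericyte-like and smooth-muscle-like cells against 33.4 CPM in endothelial-like cells.

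**Figure D5:**
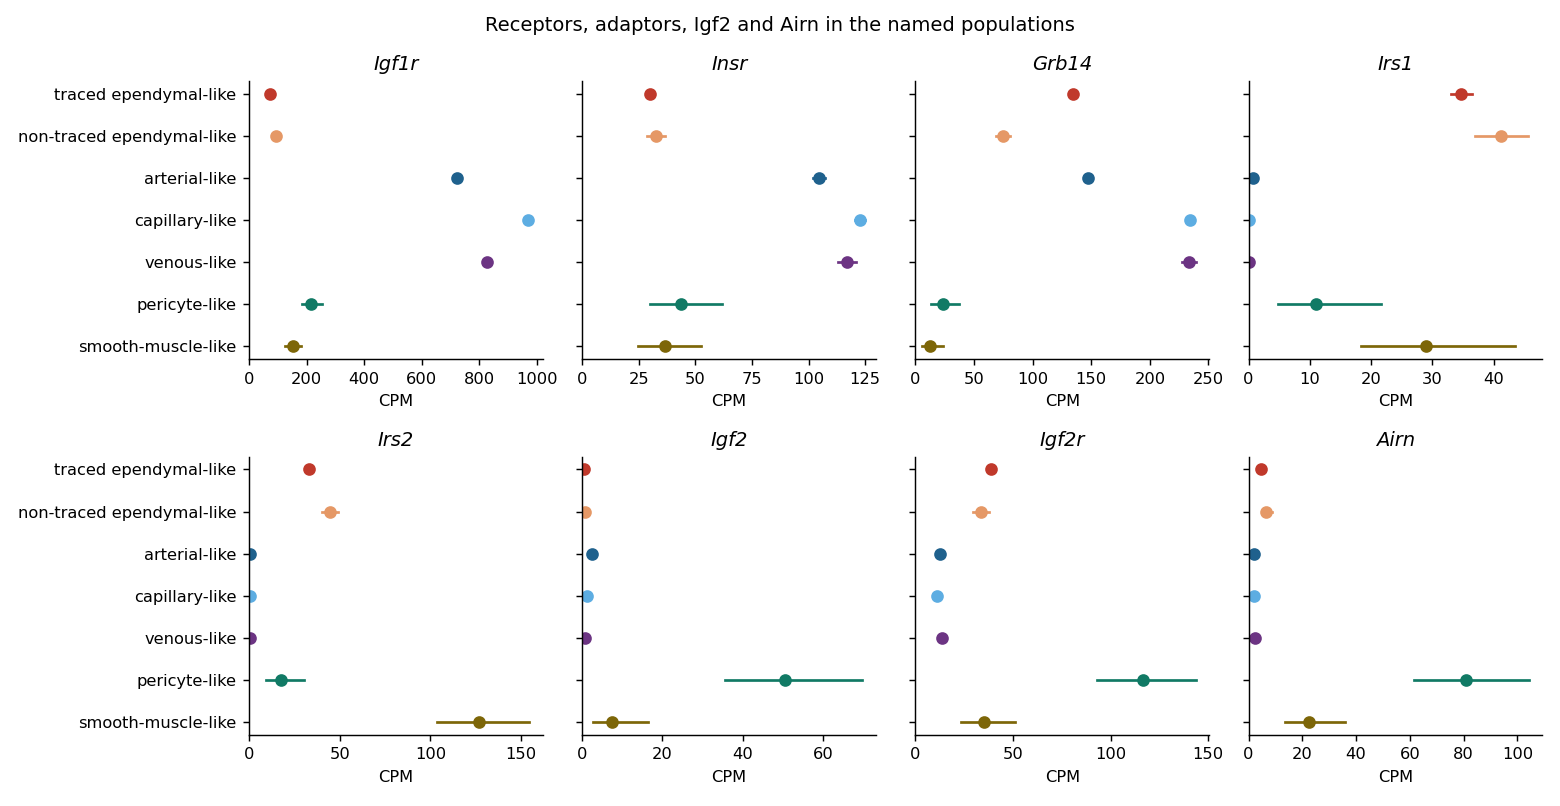
CPM with exact Poisson 95% intervals for the receptors Igf1r and Insr, the adaptors Grb14, Irs1 and Irs2, and Igf2, Igf2r and Airn in 7 populations. Igf2, Igf2r and Airn peaked in pericyte-like cells (50.7, 116 and 80.8 CPM), and Irs2 in smooth-muscle-like cells (127 CPM).

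Of the 41 listed genes, 22 reached 10 CPM in a named population, the 8 members and 14 others. Igf1, the main ligand of Igf1r, was not among them, with at most 0.463 CPM. The genes with patterns most like Igf1r were Tecpr1 and Abhd2 (r = 0.99), those most like Igfbp7 were Cnn2 and Pcdh1 (r = 0.99), those most like Igfbp5 were Pi15 and Rragd (r = 0.99), and those most like Igfbp2 were Ccdc121 and Ptprz1 (r = 0.99). Igf2 was most like Naalad2 (r = 0.91) and Igf2r most like P3h3 (r = 0.95). Igfbp4 had no close companion, and the highest correlation, with Wnt5b, was 0.68. These correlations are across 29 populations and sub-clusters that share cells and libraries, among 6127 genes with at least 50 CPM in a named population.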

How the data were processed

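Single-cell 3′ RNA-seq was analysed for 1 library of CD133+ non-traced and 1 of CD133+ DNGR-1 traced spinal cord cells. The deposited values are UMI counts per gene and cell, which the authors made with Cell Ranger 3.0.2 against mm10. STAR 2.5.1b, R 3.6.0 and Seurat 3 are named in the submitters' processing notes. No doublet caller was run, and droplets with markers of several cell types were set apart as mixed. The 8 genes, the IGF list, the marker lists and the comparisons were chosen with earlier results of these data known, and named genes are the 8 members, list genes past the fold and the genes most like each member.

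All cells of both libraries were integrated with Seurat 5.3.0 in R 4.3.3 (2000 features, 20 components, resolution 0.8). Clusters were named separately in each library from their markers, of which at least 3 had to be found in 50% of cells. Ependymal-like, endothelial-like and mural-like cells were clustered again without the IGF list and without integration of the libraries. A segment name needed a lead of 0.2 (log2) in marker level, a rule set after seeing the data. Counts were summed per population and given as CPM, with exact Poisson 95% intervals (SciPy 1.17.1, NumPy 2.4.6, pandas 2.3.3, Python 3.11.15), and plotted with matplotlib 3.10.9. Differences used a pseudocount of 1 CPM, a fold of 2 and a minimum of 10 CPM. Shares of cells are of cells thinned to 1000 UMIs, with Clopper-Pearson intervals. The floor for a gene without UMIs was 3 counts over the population. With 1 library per group no p-value was computed. Total depth was 233318692 UMIs in the non-traced and 46530507 in the traced library. The script for differences was tested on simulated data. Alternatives changed the naming, cells, scaling, pseudocount and thinning.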

Additional observations from a re-analysis of the deposited data

Results flagged for a closer look

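A group of 32 fibroblast-like cells of the non-traced library, which entered no comparison, held 4 of the genes above the level of every named population. Igfbp2 was at 118.2 CPM (47 UMIs, 23 of them in 1 cell), against at most 31.4 CPM in the named populations. Igfbp4 was at 140.8 CPM (56 UMIs), against at most 25.2 CPM. Igfbp5 was at 281.6 CPM (112 UMIs, 40 of them in 1 cell), against at most 203 CPM. Igf2 was at 88.0 CPM (61.3 to 122, 35 UMIs, 26 of them in 1 cell), against at most 50.7 CPM (35.7 to 69.8), and these intervals overlapped.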

How the results depend on the processing

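Each group was 1 library, so intervals cover counting error and not the spread between animals, and leaving out a replicate was not possible. No paired analysis was possible because the labels carry no replicate numbers and each group holds 1 library. The number of members at least 2-fold different between traced and non-traced ependymal-like cells was 1 (Igfbp7), 2 when the libraries were merged without integration (Igfbp4 and Igfbp7), 2 with whole clusters named over both libraries (Igf1r and Igfbp7) and 3 without the sub-clusters led by endothelial genes (Igfbp2, Igfbp4 and Igfbp7). The number between mural-like and endothelial-like cells was 6, and 2 (Igf2 and Igf2r) with the mixed endothelial and mural cells included. The share of non-traced ependymal-like cells with an Igfbp7 UMI was 6.45% at 1000 UMIs, 17.7% at 3000 UMIs and 35.6% in the cells as deposited. Igfbp4 in smooth-muscle-like minus endothelial-like cells reversed to -3.29 in mural-like cells without a UMI of the 4 endothelial genes, where 13 smooth-muscle-like cells had no Igfbp4 UMI. The cause of these changes was not tested beyond the fewer cells. Restricting the comparison to the Ucma sub-cluster, with or without cells with endothelial UMIs, and leaving out the arterial-like sub-cluster nearest to capillary-like cells or the pericyte-like sub-clusters led by endothelial or haemoglobin genes were chosen after seeing the data. Of all recomputed differences, 294 kept direction and size, 89 moved and 1 reversed. The mural comparison could not be run on the merged clustering, which gave no mural-like class.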
